A study of Mus musculus with 2 samples.

Results

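GABA-A receptors are chloride channels opened by the transmitter GABA, and each is built of subunits drawn from several gene classes. This account follows 7 subunit genes, the 5 alpha genes Gabra2, Gabra3, Gabra4, Gabra5 and Gabra6 and the 2 beta genes Gabrb1 and Gabrb2, in the hindbrain of mouse embryos. They were chosen by name and found by Ensembl identifier, and all 7 were among the 43346 genes of the deposited tables. The tissue came from embryos of strain B6NCrl at embryonic day 15.5, both sexes pooled, healthy by the labels and with no treatment recorded, and formed 1 group of 2 biological replicate pools. Replicate 1 pooled 78 embryos and replicate 2 pooled 62. The libraries were made from 10 ng of total RNA over 200 nt with spike-in RNAs added, and held 40020317 and 43263951 estimated counts in genes. No condition was set against another, so no p-value is given. The pools are whole tissue, so the cell types that carry each subunit cannot be told apart. The label hindbrain is described below by marker lists.

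In most receptors alpha and beta subunits are joined by a gamma or a delta subunit. GABA binds where an alpha and a beta subunit meet, and the benzodiazepine drugs bind where an alpha and a gamma subunit meet. The alpha subunit sets much of the pharmacology and the placement of the channel, and the mix of alpha genes changes as the brain matures. In many embryonic neurons, where chloride inside the cell is high, GABA depolarises the cell.

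The sequences shown first are the 250 bases before the starts of Gabra2 and Gabra5, the highest alpha members, and of Gabra6, which was listed at 0, since these genes span the range of alpha levels. The windows come from RefSeq on GRCm38.p6, all on the minus strand and written 5′ to 3′ in the direction of the gene. They lie at chr5:71095850-71096099 for Gabra2, chr7:57510060-57510309 for Gabra5 and chr11:42321073-42321322 for Gabra6. Capitals mark matches, on either strand, to any of 6 short motifs spelled out after the sequences.

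Gabra2: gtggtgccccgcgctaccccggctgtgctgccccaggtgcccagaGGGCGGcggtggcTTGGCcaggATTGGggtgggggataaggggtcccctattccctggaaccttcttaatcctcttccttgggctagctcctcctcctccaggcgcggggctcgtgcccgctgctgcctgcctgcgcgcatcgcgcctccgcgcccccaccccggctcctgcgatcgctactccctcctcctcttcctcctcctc
Gabra5: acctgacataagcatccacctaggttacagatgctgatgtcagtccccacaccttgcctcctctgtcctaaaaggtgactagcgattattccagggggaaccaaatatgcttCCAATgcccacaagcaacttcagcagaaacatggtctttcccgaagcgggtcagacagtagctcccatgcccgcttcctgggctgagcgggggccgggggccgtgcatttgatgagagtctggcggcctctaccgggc
Gabra6: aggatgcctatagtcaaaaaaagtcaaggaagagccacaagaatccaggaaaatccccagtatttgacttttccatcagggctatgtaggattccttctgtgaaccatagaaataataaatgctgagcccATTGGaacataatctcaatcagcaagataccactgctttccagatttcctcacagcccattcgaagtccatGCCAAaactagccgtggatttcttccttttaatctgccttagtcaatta

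The motifs searched on both strands were TATAAA (the TATA box), CCAAT (the CCAAT box), GGGCGG (the core bound by Sp1), CGGAAG (an Ets core), TGACG (a cAMP response half-site) and TTGGC (a half-site of nuclear factor I). The reverse complement of TTGGC can overlap CCAAT. The Gabra2 window held GGGCGG at 205, TTGGC at 192 and CCAAT in reverse at 183 bases before the start. The Gabra5 window held CCAAT at 138 bases before it. The Gabra6 window held CCAAT in reverse at 120 and TTGGC in reverse at 49 bases before it. In base composition these windows differed: GC content was 70% with 18 CpG in Gabra2, 56.4% with 9 CpG in Gabra5 and 40.8% with 2 CpG in Gabra6. Across all alpha members the order by GC content was not the same as the order by level. The windows of Gabra3, the next alpha member in level after Gabra5, had 39.2% and 42.4% with 0 CpG, near Gabra6. That of Gabra4, lower in level than Gabra3, had 61.2% with 12 CpG. A link between composition and level was not tested.

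The 7 genes have 11 annotated start windows, and over all 32851 such windows of the RefSeq table the median GC content was 52.4% with 6 CpG. CCAAT was in 7 of the 11 member windows, against 33.8% of all windows, and TTGGC was in 5, against 41.5%. GGGCGG was in 3 of 11, against 32.7%. TATAAA was also in 3, against 12.4%. CGGAAG and TGACG were in none of the 11, against 13.6% and 17.8% of all. The 2 windows of Gabra3 overlap, so they share a TATAAA and a CCAAT match, each counted in both windows, and the windows of a gene are not independent. A match describes letters in a window and was not tested as a binding site. The RefSeq starts are not always those of the transcripts with reads, as placed in GENCODE M21. Gabra2-201 starts at 71094640 against 71095849 here, and Gabra5-201 at 57510009 against 57510059. Gabra3-201 starts at 72656186 against 72656807 and 72656919. Gabrb2-201 starts at 42419757, so its windows, with starts at 42420440, 42420774 and 42421201, lie after that. Gabra4-201 and Gabrb1-201 begin at a RefSeq start.

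Among the alpha genes, Gabra2, Gabra5 and Gabra3 made up most of the RNA, Gabra4 was lower and Gabra6 was listed at 0. Levels are in TPM, a relative abundance corrected for transcript length, and errors are the SD of n = 2 libraries. Gabra2, whose subunit is abundant in embryonic brain, was at 43.75 TPM in replicate 1 and at 46.01 TPM in replicate 2, a mean of 44.9 ± 1.6. It stood above 82.5% and 82.9% of the 21461 nuclear protein-coding genes in these libraries. Gabra5, whose subunit is mostly extrasynaptic and best known from the hippocampus, had 38.18 and 37.14 TPM, a mean of 37.7 ± 0.735. Gabra3, an X-linked gene whose subunit is typical of developing and of monoaminergic neurons, had 29.03 and 34.30 TPM, a mean of 31.7 ± 3.73. Both libraries gave the same order, and the ranges of these 3 genes did not overlap.

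Gabra4 encodes a subunit that often pairs with delta outside synapses and, like that of Gabra6, forms receptors insensitive to diazepam. It was at 8.85 TPM in replicate 1 and at 9.15 TPM in replicate 2, a mean of 9.00 ± 0.212. Both values lay below those of the other detected members. Gabra6, the alpha gene of mature cerebellar granule cells, had 0 counts in both libraries. At this depth 3 counts would be 0.0565 TPM in replicate 1 and 0.0535 TPM in replicate 2. The upper bounds of the deposited TPM intervals were 0.126 and 0.118. A level under those limits was not detectable. Genes of the granule cell lineage were present in the same libraries. Of the 8 in the list, 7 reached 1 TPM in both libraries, beside 63.1% of all nuclear protein-coding genes. Among the 7 were Neurod1 at 38.5 ± 0.686 and Cbln1 at 24.3 ± 1.70 TPM. Cbln3, a cerebellin gene of granule cells, was the one that did not reach 1 TPM, at 0.41 and 0.42 TPM. In whole tissue, fewer cells of a type and less RNA per cell cannot be told apart.

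Of the beta genes, whose subunits form the other face of the GABA site, Gabrb2 was at 17.16 TPM in replicate 1 and at 16.00 TPM in replicate 2, a mean of 16.6 ± 0.82. Gabrb1 had 15.59 and 17.45 TPM, a mean of 16.5 ± 1.32. Replicate 1 was the higher library for Gabrb2 and the lower for Gabrb1, so the ranges overlapped and the order of these neighbours was not resolved. Both lay between Gabra3 and Gabra4. In all, 6 of the 7 members reached 1 TPM or more in both libraries, beside 63.1% of all nuclear protein-coding genes.

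**Figure D1:**
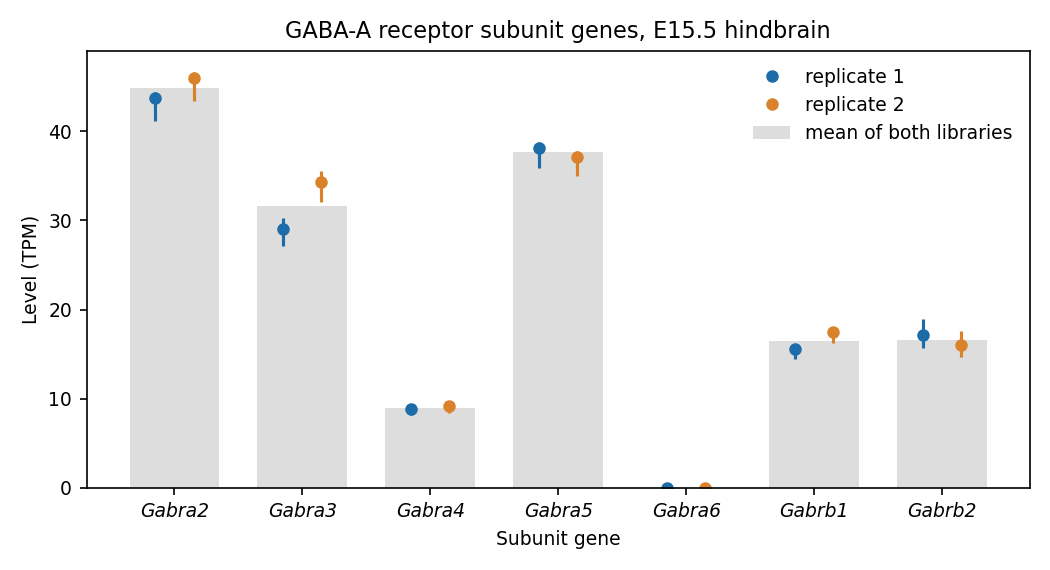
Level of each subunit gene in TPM. Points are the libraries, bars their mean, and vertical lines the authors' deposited TPM interval of each library. Gabra2 is highest at a mean of 44.9 TPM, Gabra6 lies at 0, and the points of Gabrb1 and Gabrb2 overlap.

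As a share of the TPM summed over the 5 alpha members, Gabra2 held 36.4 ± 0.123%, Gabra5 30.6 ± 1.79%, Gabra3 25.7 ± 2.02%, Gabra4 7.31 ± 0.113% and Gabra6 0%. In replicate 1 the Gabra5 share was 31.9% and the Gabra3 share 24.2%, against 29.3% and 27.1% in replicate 2. The gap between these genes was thus narrower in replicate 2, and Gabra2 was steady at 36.5% and 36.3%. Of the TPM of the beta members, Gabrb2 held 50.1 ± 3.23% and Gabrb1 49.9 ± 3.23%, and which of them led differed between the libraries.

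The listed members are not the whole of each class. They held 92.3 ± 0.240% of the TPM of all 6 alpha genes in the tables, but only 43.3 ± 2.88% of that of all 3 beta genes. Over all alpha genes the shares were 33.6 ± 0.201% for Gabra2, 28.2 ± 1.72% for Gabra5, 23.7 ± 1.81% for Gabra3 and 6.74 ± 0.121% for Gabra4. Over all beta genes they were 21.7 ± 2.84% for Gabrb2 and 21.5 ± 0.0407% for Gabrb1. The summed level of the alpha members was 120 TPM in replicate 1 and 127 TPM in replicate 2, and that of the beta members 32.8 and 33.5 TPM. Alpha exceeded beta 3.72 ± 0.0894 times over the members and 1.74 ± 0.0697 times over all genes of both classes. These are ratios of RNA, not of subunits in receptors.

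**Figure D2:**
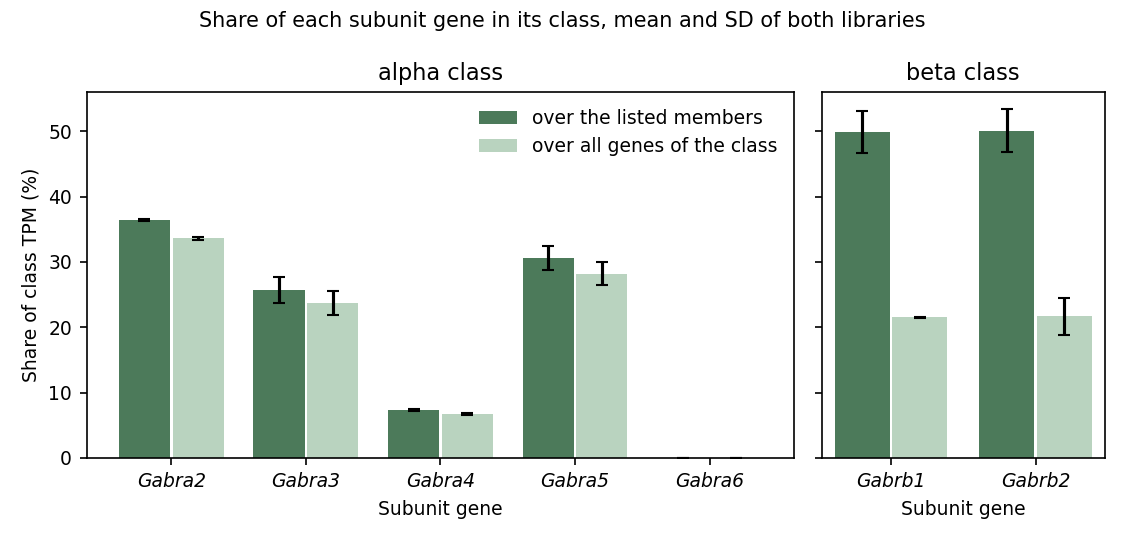
Share in percent of each subunit gene in the TPM of its class, as mean and SD of both libraries. Dark bars take the listed members as the whole and light bars all genes of the class in the tables. Gabra2 leads the alpha members at 36.4%, and the beta shares drop to 21.7% and 21.5% over the whole class.

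The members lie on 4 chromosomes, and levels differed between neighbours. On GRCm38, Gabra2 (70957597 to 71095849, minus strand), Gabra4 (71569749 to 71658308, minus strand) and Gabrb1 (71658113 to 72149037, plus strand) lie on chromosome 5. In that cluster Gabra2 stood at 44.9 TPM, Gabra4 at 9.00 TPM and Gabrb1 at 16.5 TPM. On chromosome 11, Gabra6 (42306437 to 42321072, minus strand) was at 0 and Gabrb2 (42419757 to 42629028, plus strand) at 16.6 TPM. Gabra5 lies on chromosome 7 (57407672 to 57510059, minus strand) and Gabra3 on chromosome X (72432681 to 72656848, minus strand).

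Read sharing between the members was small. The coding sequences of alpha pairs were 65% to 72.6% identical where aligned, the beta pair 71.8%, and alpha to beta pairs 54.4% to 58.2%. Gabra4 and Gabra6 were the closest pair. The longest stretch of identical bases between the M21 transcripts compared, 1 for each member, was 24 nt. The deposited posterior SD of the count was 0 for each member other than Gabra5, for which it was 0.74 and 0.92 reads of 2523.57 and 2592.31. Overlap in position with other genes is another matter, and the sources used here do not say whether counting used strand. The spans below are those of M21, not of the models counted. The spans of Gabra4 and Gabrb1 overlap by 196 bases at their starts. The span of Gabra5 overlaps that of another protein-coding gene by 90368 bases and that of the antisense gene Gm9962, at 0.39 and 0.38 TPM, by 2270. The span of Gabrb1 also overlaps the antisense gene Gm38562 by 19557 bases, for which no level is given here, and the pseudogene Gm15617, at 0.69 and 0.60 TPM, by 771. The span of Gabra3 overlaps the pseudogene Gm14735, at 0.05 and 0.07 TPM, by 3088 bases and the small nuclear RNA gene Gm23461, at 0 and 4.57 TPM, by 107. Reads of such partners cannot be told apart where their exons meet.

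Transcripts are given by the names of GENCODE M21, matched by identifier to the older M4 models on which the authors counted. The M4 tables held 15 transcripts of the members. Of the members, 4 (Gabra2, Gabra4, Gabra5 and Gabrb1) had a single transcript, so their whole level rests on 1 model. For Gabra2 that model was 2392 nt long, against 5852 nt for the longest M21 model, and for Gabrb1 it was 3089 nt against 13737 nt. Reads in the added stretches could not be counted, and their effect on these levels was not tested. The other 3 members had several transcripts, and the 3 of Gabra6 were all at 0.

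Gabra3 RNA was assigned mostly to the coding transcript Gabra3-201, at 26.45 TPM in replicate 1 and at 30.63 TPM in replicate 2, which is 91.1% and 89.3% of the gene. The short Gabra3-203, annotated without a coding sequence, had 2.12 and 3.28 TPM, or 7.30% and 9.57%. It lacks the exon of 122 nt at chrX:72540063-72540184. Its deposited intervals, 1.04 to 3.55 and 1.99 to 4.73 TPM, overlap, and a difference between the libraries was not tested. The coding transcript Gabra3-202, which begins at another first exon, had 0.46 and 0.38 TPM, or 1.58% and 1.11%.

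Gabrb2 RNA was assigned mostly to Gabrb2-201, at 15.07 TPM in replicate 1 and at 14.20 TPM in replicate 2, or 87.8% and 88.8% of the gene. Gabrb2-202, annotated without a coding sequence, had 2.02 and 1.42 TPM, or 11.8% and 8.88%. Its last exon runs 129 bases past the matching exon of Gabrb2-201, into the intron. It rests on 29.2 and 21.7 estimated counts, and its deposited intervals were 0.585 to 3.67 and 0.426 to 2.94 TPM. Gabrb2-203 and Gabrb2-204 stayed at or under 0.22 TPM in both libraries.

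The other coding transcript of Gabrb2, Gabrb2-205, carries an extra exon in the region that codes for the large loop inside the cell and is the long splice form. The exon is number 9 of 10 and spans 114 nt at chr11:42602115-42602228 on the plus strand. It is shown because its bases are absent from Gabrb2-201 and separate the forms. In lower case, as read from the M21 transcript:

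Gabrb2-205 exon 9: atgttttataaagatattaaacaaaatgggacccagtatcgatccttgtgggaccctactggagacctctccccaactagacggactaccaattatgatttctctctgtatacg

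Gabrb2-205 had 0 counts in both libraries. The upper bounds of its deposited intervals were 0.596 TPM in replicate 1 and 0.358 TPM in replicate 2, against lower bounds of 13.9 and 13.1 TPM for Gabrb2-201. The M4 model of Gabrb2-205 holds the coding region alone, so apart from this exon its reads could also come from Gabrb2-201. The leading transcript was the same in both libraries for both members that could be compared, Gabra3 and Gabrb2, beside 91.9% of 10400 genes with several transcripts.

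**Figure D3:**
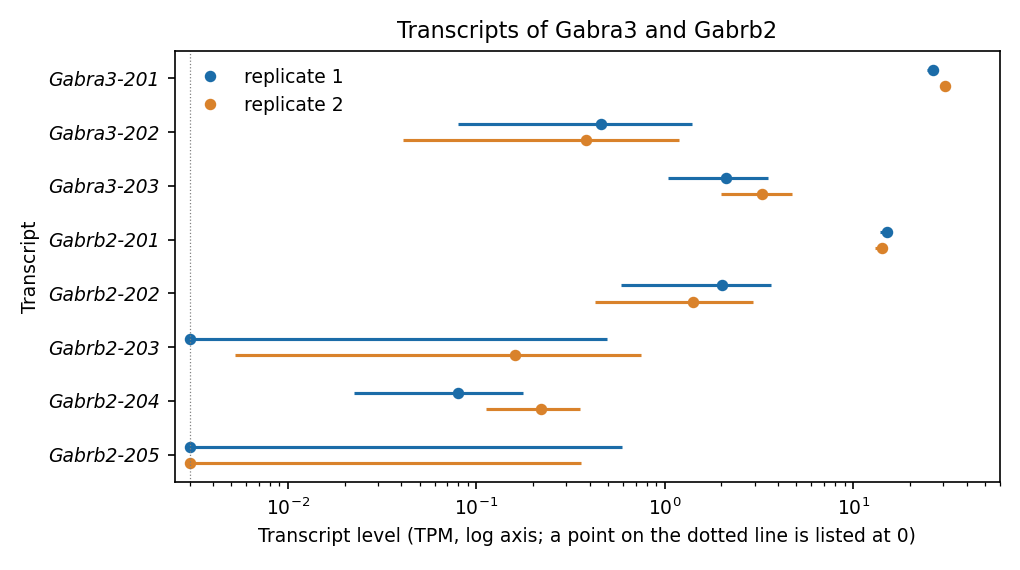
Level of each transcript of Gabra3 and Gabrb2 in TPM on a log axis, with the authors' deposited interval as a line. Points on the dotted line are listed at 0. Gabra3-201 and Gabrb2-201 lead in both libraries, and Gabrb2-205 is at 0 in both.

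The pools differed little in the members. Ratios are replicate 1 over replicate 2 after TMM scaling, with exact (Clopper-Pearson) 95% intervals that cover counting error only. Gabra3 was lowest, at 0.882 (0.836 to 0.930), a log2 ratio of -0.18, from 2486 counts in replicate 1 and 3044 in replicate 2. Gabrb1 followed at 0.913 (0.845 to 0.987), from 1206 and 1426 counts. Gabrb2 was highest at 1.08 (1.01 to 1.16), from 1551 and 1548 counts. Under TMM these 3 intervals exclude equality. For Gabra5 at 1.05 (0.995 to 1.11), Gabra4 at 0.990 (0.904 to 1.08) and Gabra2 at 0.972 (0.922 to 1.03) they include it. With 1 library per pool, a ratio has no replicate check, and genes as a whole varied between the libraries by more than counting error.

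None of the 6 members compared passed 1.5-fold, beside 6.43% of all 17048 genes compared. A share of that size makes 0 of 6 unremarkable. Spike-in scaling moved the median of all genes by 0.11 on the log2 scale. Under it Gabra2 stood at 0.07 rather than -0.04, and Gabra4 changed sign too, so no direction is given for them. The interval then included equality for Gabra3 (0.904 to 1.01) and Gabrb1 (0.914 to 1.07) and excluded it for Gabra5 (1.08 to 1.20). Of the 6 members, only Gabrb2 had an interval that excluded equality under each of the 4 scalings run. With spike-ins it was 1.09 to 1.26. With DESeq2 size factors it was 1 to 1.15 after rounding, so its lower bound lay at the edge of equality. The SD of the log2 ratio over all genes was 0.40.

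**Figure D4:**
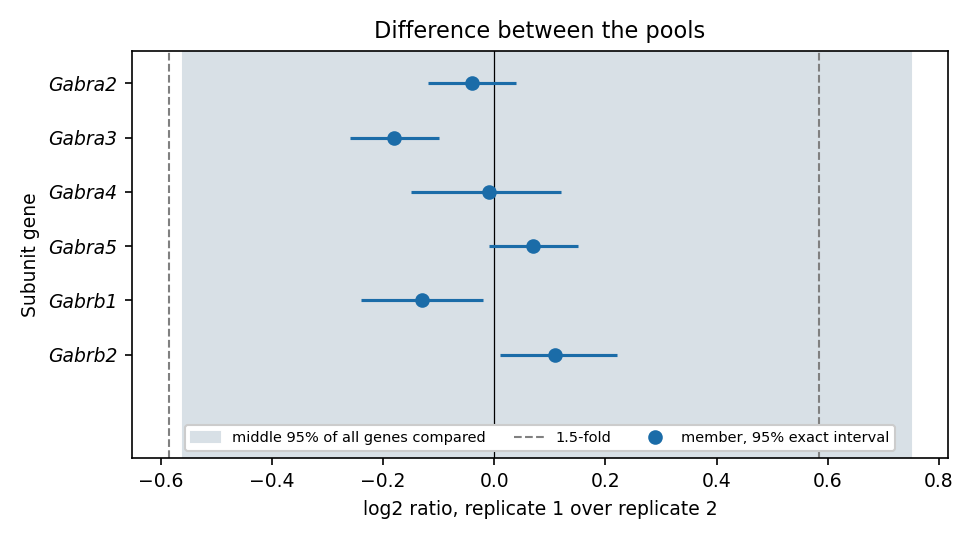
The log2 ratio of replicate 1 over replicate 2 for the 6 members with counts. Points carry 95% exact intervals, dashed lines mark 1.5-fold, and the band holds the middle 95% of all genes compared, from -0.56 to 0.75. The members lie between -0.18 and 0.11.

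Some marker lists differed between the pools, mostly in 1 direction within a list. For comparison, 6.43% of all genes compared passed 1.5-fold, and 63.1% of all nuclear protein-coding genes were detected. Forebrain genes summed to 42.8 TPM in replicate 1 and to 71.0 TPM in replicate 2, with 7 of 8 compared lower in replicate 1, 5 of them by 1.5-fold or more. Of all 10 in that list, 2 reached 1 TPM in both libraries, Neurod6 at 23.64 and 35.36 TPM and Neurod2 at 16.76 and 23.12 TPM. They held most of the summed TPM, and neither passed 1.5-fold. The 5 that did were each under 1 TPM in replicate 1. Caudal Hox genes summed to 4.29 TPM in replicate 1 and to 29.5 TPM in replicate 2, with all 3 compared lower in replicate 1 by more than 1.5-fold and Hoxc10 at 0 in both. Purkinje cell genes summed to 435 and 502 TPM, with all 7 lower in replicate 1, 3 of them past 1.5-fold. Most of these sums was Pcp4, at 343.22 and 367.78 TPM and a log2 ratio of only -0.07. Choroid plexus genes summed to 957 and 1297.5 TPM, mostly Ttr at 867.62 and 1183.18 TPM. All 5 were lower in replicate 1, 1 of them past 1.5-fold. Sensory ganglion genes summed to 326 and 234 TPM, with all 5 higher in replicate 1, 2 of them past 1.5-fold. Genes of meninges and fibroblasts summed to 538 and 441 TPM, with all 5 higher in replicate 1 and none past 1.5-fold. Neuronal genes, at 4893.4 and 5125.8 TPM, and radial glial genes, at 2520.6 and 2559.4 TPM, had none past it. Fabp7 alone gave 1746.03 and 1814.58 TPM of the radial glial sums. Granule cell genes summed to 168 and 170 TPM, with 3 of 8 higher in replicate 1, 1 of them past 1.5-fold. The part of these cells in the subunit ratios was not tested.

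Genes that partner the subunits were present at the same time. Of 12 other GABA-A subunit genes in the tables, 6 reached 1 TPM in both libraries, beside 63.1% of all nuclear protein-coding genes. None of the 7 compared passed 1.5-fold, beside 6.43% of all genes compared. Gabrg1, a gamma subunit gene of the chromosome 5 cluster, had 9.09 and 9.45 TPM. Gabrg3, another gamma gene, had 6.77 and 6.05 TPM, and Gabrq, the theta gene, had 2.77 and 3.98 TPM. The highest of the 6 not detected averaged 0.660 TPM.

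All 20 genes listed for assembly, trafficking and anchoring were detected, beside 63.1% of all nuclear protein-coding genes. Their median level was 63.6 TPM and none passed 1.5-fold, beside 6.43% of all genes compared. The highest were Maged1 at 758 ± 27.3 TPM and Gabarap at 457 ± 8.22 TPM, which binds gamma subunits and serves autophagy. Gabarapl2, of the same family, had 357 ± 10.7 TPM, and Hap1, a trafficking adaptor, 205 ± 3.02 TPM. Rdx, whose product radixin anchors receptors with the alpha5 subunit, was at 62.66 TPM in replicate 1 and at 56.14 TPM in replicate 2.

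On the side of the ligand, all 3 genes of GABA synthesis and vesicular loading were detected, beside 63.1% of all nuclear protein-coding genes. Gad1 and Gad2, which encode the enzymes that make GABA, had 82.7 ± 0.566 and 32.3 ± 0.827 TPM, and Slc32a1, the vesicular transporter, 9.98 ± 0.834 TPM. Of the 3 listed modulators 2 were detected. Dbi, whose peptide acts at the benzodiazepine site, had 1306 ± 5.39 TPM. Srd5a1, an enzyme of neurosteroid synthesis, had 14.8 ± 0.601 TPM, and Akr1c14, the next enzyme, 0.72 and 0.61 TPM. The metabotropic GABA-B receptor genes Gabbr1 and Gabbr2 had 68.9 ± 0.962 and 13.0 ± 1.90 TPM. None of these 8 genes passed 1.5-fold between the pools, beside 6.43% of all genes compared.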

How the data were processed

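Total RNA was measured in 2 libraries of 1 group. Nothing states that the pools came from separate litters, so spread may be partly technical. Per the file headers and accompanying notes, the authors aligned each library to the mm10 transcriptome with GENCODE M4, without pooling. Which aligner and quantifier were run, and with what strand setting, is not given in the sources used here. Estimated counts as the authors deposited them, for genes and for transcripts, are not normalized. The deposited TPM values are scaled over all features, spike-ins included, and the deposited FPKM by length and assigned reads. The deposited percent of a gene's TPM per transcript stands beside shares computed here from TPM, and the deposited interval bounds are in TPM. Of 43346 gene identifiers, 42462 matched GENCODE M21 on GRCm38. M21 and M4 models can differ, so M21 positions describe the gene.

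Spike-ins, 2.86% and 3.09% of counts, stayed out of library sizes. A gene was called detected at 1 TPM or above in each library. Counts were rounded and scaled with TMM (edgeR 4.0.16, R 4.3.3). For log2 ratios 0.5 was added to each count and a mean count of at least 20 was required. The ratio and the 1.5-fold call were tested on simulated counts with changes well past 1.5-fold. Changes near 1.5-fold and the coverage of the intervals were not tested. Over those genes chi-square was 12.4 per degree of freedom, so the libraries differed by more than counting error. This cannot show that the pools are independent. The sample size was taken as the 2 libraries. The floor for 0 was 3 counts. Reads have no molecular identifiers.

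Named were all members, transcripts with 10% or more of a member's TPM in either library, and the 4 highest of other subunits and of each list. Other transcripts of Gabra3 and Gabrb2, and Gabrg3, Gabrq, Rdx, Neurod1, Cbln1, Cbln3 and Hoxc10, were named after their values were seen. So were Neurod2, Neurod6, Pcp4, Ttr and Fabp7. Some of the genes taken by the rule are not reported here. Members and lists were chosen with earlier results of these data known.

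Alternatives were other TPM minimums, posterior and rescaled TPM, FPKM, other scalings (DESeq2 1.42.0 size factors, library and spike-in totals), TPM ratios, count minimums, single libraries, other class totals and other rules for the leading transcript.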

Additional observations from a re-analysis of the deposited data

How the results depend on the processing

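The count of 6 members detected, of 0 members past 1.5-fold and of 2 members with the same leading transcript held under all alternatives run (8, 9 and 4). Some of these alternatives could not have changed the counts. Members had either 0 or at least 8.85 TPM and 922 counts, so the other TPM and count minimums could not matter. The higher fold limit could not add a member either. With no length correction, the share of the alpha members moved to 30.4% for Gabra2, 30.6% for Gabra3, 10.7% for Gabra4 and 28.4% for Gabra5, so Gabra3 came level with Gabra2, and the beta shares moved to 45.8% for Gabrb1 and 54.2% for Gabrb2. Over all genes of the class they were 33.6% for Gabra2, 6.74% for Gabra4, 28.2% for Gabra5, 21.5% for Gabrb1 and 21.7% for Gabrb2. With posterior mean TPM the Gabra6 share was 0.0497%, an effect of a posterior mean being above 0 by construction. Single libraries gave alpha shares of 36.3% to 36.5% for Gabra2, 24.2% to 27.1% for Gabra3, 7.23% to 7.39% for Gabra4 and 29.3% to 31.9% for Gabra5, and 47.6% to 52.2% for Gabrb1 and 47.8% to 52.4% for Gabrb2. Log2 ratios of the members stayed between -0.24 and 0.23 over all alternatives run, and 2 of 36 values changed sign. TPM rescaled over nuclear protein-coding genes raised every detected member by the same factor within a library, Gabra2 to 57.1. Depth limits what can be said of Gabra6 and the minor transcripts. No paired analysis was possible because the series has 1 group.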
